A study of Mus musculus with 24 samples.

Results

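The genes described here are 30 genes of cholesterol synthesis and of the SREBP2 pathway that controls it measured in mouse liver. They were matched by gene symbol to the array's gene probes. Of the 30 genes, 29 were on the array, and all 29 passed the filter on dim probes, among 21331 genes tested. Acat2 was not found under that symbol and has no value here. The list holds 18 measured enzymes that lead from acetyl-CoA units to cholesterol, 4 genes of the sterol-sensing machinery (Srebf2, Scap, Insig1 and Insig2), 4 genes of sterol transport (Stard4, Tmem97, Npc1 and Npc2) and 3 genes of cholesterol esterification (Soat1, Soat2 and Lcat).

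The study asked how the liver responds to activation of the beta3 adrenergic receptor, and whether PPARα in hepatocytes matters for that response. Total RNA of 24 livers was hybridised, 1 array per mouse. All mice were males, C57Bl/6J by the series title, with free access to a standard diet, and none of the labels gives an age. CL316243 is a selective agonist of the beta3 adrenergic receptor, a receptor best known from fat cells. The 4 groups of 6 mice were LWT mice (hepatocyte PPARα expressed) given vehicle, LWT mice given CL316243, LKO mice (hepatocyte PPARα not expressed) given vehicle, and LKO mice given CL316243. Mice were gavaged at Zeitgeber time 10 h with 0.5% carboxymethyl cellulose, alone or with 3 mg/kg of the agonist, and all livers were taken at Zeitgeber time 16 h. The labels do not name the recombinase, its promoter or the deleted exons of the LKO mice.

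As background, the liver makes cholesterol from acetyl-CoA through mevalonate, isoprenoid phosphates, squalene and lanosterol. SREBP2, the product of Srebf2, is held in the endoplasmic reticulum with SCAP by the INSIG proteins when sterols are plentiful. When sterols fall, SCAP carries SREBP2 to the Golgi apparatus, where it is cut, and the released part switches on most genes of the pathway, Insig1 among them.

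SREBP2 binds short sterol regulatory elements, usually beside a CCAAT box bound by NF-Y. Promoter stretches of 6 members are shown because these genes moved in different directions below while sharing the CCAAT box. They are from RefSeq, build GRCm38.p6, written 5′ to 3′ on the gene's strand, with positions counted from the annotated start and only bases before it printed. Capitals mark CCAAT or its reverse complement ATTGG, and in Hmgcs1 also the sterol regulatory type motif TCACNCCAC. Insig2 has 3 annotated start windows, and the one with the CCAAT box is shown.
Hmgcs1, chr13:119690171-119690290, + strand, -180 to -61: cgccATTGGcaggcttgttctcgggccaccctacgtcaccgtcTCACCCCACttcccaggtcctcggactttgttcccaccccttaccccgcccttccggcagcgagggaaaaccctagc
Mvk, chr5:114444149-114444268, + strand, -120 to -1: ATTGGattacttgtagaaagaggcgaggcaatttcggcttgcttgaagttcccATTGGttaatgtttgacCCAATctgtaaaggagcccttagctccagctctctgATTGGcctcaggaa
Msmo1, chr8:64733579-64733698, - strand, -120 to -1: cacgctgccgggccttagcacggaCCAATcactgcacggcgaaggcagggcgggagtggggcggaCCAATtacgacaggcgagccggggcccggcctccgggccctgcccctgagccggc
Cyp51, chr5:4104698-4104817, - strand, -120 to -1: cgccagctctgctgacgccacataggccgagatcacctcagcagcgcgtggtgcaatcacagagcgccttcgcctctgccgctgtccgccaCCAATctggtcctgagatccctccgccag
Hsd17b7, chr1:169969206-169969325, - strand, -120 to -1: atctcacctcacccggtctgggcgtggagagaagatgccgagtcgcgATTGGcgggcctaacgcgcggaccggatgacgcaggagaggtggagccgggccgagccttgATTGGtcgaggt
Insig2, chr1:121332590-121332709, - strand, -120 to -1: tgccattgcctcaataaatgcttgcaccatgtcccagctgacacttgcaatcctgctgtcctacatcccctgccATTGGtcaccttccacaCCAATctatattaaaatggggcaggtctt

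Of the 30 members, 24 had a promoter window in the RefSeq table, which covers 250 bases before to 50 after a start. CCAAT on either strand was in 22 of the 24 (91.7%), against 41.1% of all 27025 genes with a window and 42.3% of 17492 protein-coding genes. The matched members without it were Acat2 and Scap. TCACNCCAC, searched on both strands, was in 1 of the 24 (4.17%, Hmgcs1), against 1.44% of all genes. TGACGTCA, the cAMP response element, was in 0 of the 24, against 2.03% of all genes. The printed stretches hold 4 CCAAT boxes in Mvk, 2 each in Msmo1, Hsd17b7 and Insig2, and 1 each in Hmgcs1 and Cyp51. After CL316243 Mvk was called lower in both genotypes and Msmo1 only in LWT. Hsd17b7 and Insig2 were called higher in both, and Hmgcs1 and Cyp51 only in LKO. These box counts cover the printed bases only. A match of letters is a description and not a measured site.

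Values are log2 processed signals relative to the 75th percentile of each array, called levels here. Levels of different genes come from different probes and are not compared with each other. A change was called at an adjusted p under 0.05 (limma, Benjamini-Hochberg over all 21331 genes). The brightest kept probe of every member was well above background on 6 of 6 arrays of every group, and no spot was saturated. Liver markers were present in all groups: the summed level of 7 hepatocyte markers, Alb and Hnf4a among them, had group medians from 11.48 to 11.62. Ppara, the targeted gene, ranged from 5.45 to 5.93 in LWT vehicle, 5.70 to 6.42 in LWT CL316243, 4.81 to 5.18 in LKO vehicle and 3.06 to 4.85 in LKO CL316243 mice. LKO minus LWT for Ppara was -1.91 under CL316243 (adjusted p = 3.6e-07, limma). Under vehicle it was -0.68, which did not pass (adjusted p = 0.158), although the groups did not overlap. Whether this probe lies in the deleted part is not given. The 24 arrays lay on 3 slides with 2 mice of every group on each. Array 75th percentiles of signal ranged from 397.4 to 577.7. In whole liver, fewer cells of a type and less RNA per cell cannot be told apart, for any gene below.

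In LWT mice CL316243 lowered 12 of the 29 members (41.4%) and raised 3 (10.3%), where 19.4% of all genes were called lower and 18.9% higher. The 12 were Mvk, Mvd, Ggps1, Fdft1, Sqle, Lss, Msmo1, Ebp, Sc5d, Insig1, Stard4 and Tmem97, and the 3 were Insig2, Srebf2 and Hsd17b7. The median log2 change of the 18 enzymes was -0.29, against 0.01 for all genes, and 4 of the 18 lay above 0. In LKO mice the same agonist raised 10 members (34.5%) and lowered 5 (17.2%), where 20.9% of all genes were called higher and 19.4% lower. The 10 were Hmgcs1, Pmvk, Idi1, Ggps1, Sqle, Cyp51, Hsd17b7, Insig2, Srebf2 and Lcat, and the 5 were Mvk, Sc5d, Insig1, Stard4 and Npc1. The enzyme median was 0.10 in LKO, against 0.03 for all genes, with 12 of 18 enzymes above 0. Members called lower thus exceeded the share of all genes in LWT and were near it in LKO, and members called higher exceeded it in LKO and not in LWT. A fit without 3 mice, described further on, was added after the data were seen. They were picked because their levels of these same enzymes stood apart, so smaller p-values without them are no support. In that fit 15 members were called in LWT and 15 in LKO, of which 15 and 14 were among those called with all mice. The enzyme median was then -0.26 in LWT and 0.33 in LKO.

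**Figure D1:**
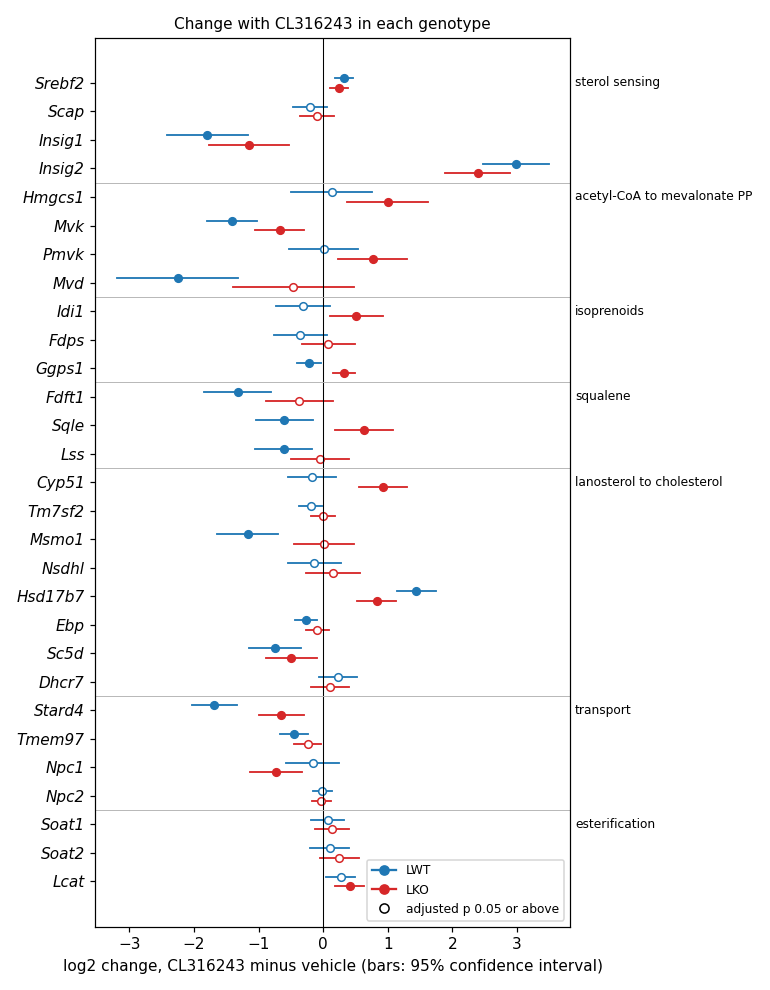
Log2 change from vehicle to CL316243 for the 29 measured members, ordered by role, in LWT (blue) and LKO (red) mice, 6 per group; points are limma estimates, bars 95% confidence intervals, and open points did not reach an adjusted p under 0.05. Insig2 lies far to the right at 2.99 and 2.39, and for most enzymes the red point lies to the right of the blue point.

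The largest change of the list was that of a sterol-sensing gene. Insig2 encodes one of the 2 INSIG anchors of SCAP. Its level ranged from 3.35 to 4.65 (median 3.99) in LWT vehicle mice and from 6.51 to 7.28 (median 7.18) in LWT CL316243 mice. The LKO range was 3.59 to 4.61 (median 4.10) under vehicle and 5.70 to 7.05 (median 6.48) under CL316243. All treated mice therefore lay above all vehicle mice in each genotype. The log2 change was 2.99 (SE 0.24, 7.92-fold, adjusted p = 3.92e-09, limma) in LWT and 2.39 (SE 0.24, 5.25-fold, adjusted p = 2.68e-07, limma) in LKO. The difference between these changes was -0.59 with a 95% confidence interval of -1.30 to 0.12, and did not pass (adjusted p = 0.386, limma). The probe lies at chr1:123201085-123201144 (mm9, as the files give it), and the other kept Insig2 probes gave 3.17 and 3.39 in LWT and 2.48 for both in LKO.

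Insig1, the other INSIG anchor and itself a target of SREBP2, moved the opposite way. Its level ranged from 1.18 to 2.95 (median 1.95) in LWT vehicle and from -0.31 to 0.68 (median 0.15) in LWT CL316243 mice. It ranged from 1.51 to 2.88 (median 2.21) in LKO vehicle and from -0.04 to 1.46 (median 1.36) in LKO CL316243 mice. Neither pair of groups overlapped, and the lowest LKO CL316243 mouse was replicate 3. The change was -1.80 (SE 0.30, 3.47-fold lower, adjusted p = 6.39e-05, limma) in LWT and -1.15 (SE 0.30, 2.22-fold lower, adjusted p = 0.00394, limma) in LKO. Without the 3 mice that stood apart the LKO change was -0.82 (adjusted p = 0.0165). The difference between the genotypes' changes was 0.65 (95% interval -0.23 to 1.52, adjusted p = 0.459, limma).

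Srebf2, the gene of SREBP2 itself, rose by a small amount in both genotypes. Levels ran from 1.05 to 1.29 in LWT vehicle, 1.35 to 1.71 in LWT CL316243, 0.99 to 1.23 in LKO vehicle and 1.24 to 1.57 in LKO CL316243 mice, with no overlap within a genotype. The change was 0.32 (adjusted p = 0.000653) in LWT and 0.25 (adjusted p = 0.00453) in LKO (limma), both under 1.5-fold. A second, dimmer Srebf2 probe gave 0.78 and 0.62. Scap, the escort protein's gene, was not called: its change was -0.21 (95% interval -0.47 to 0.06) in LWT and -0.10 (-0.36 to 0.17) in LKO.

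The plot of levels by mouse shows these genes beside the enzymes described next.

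**Figure D2:**
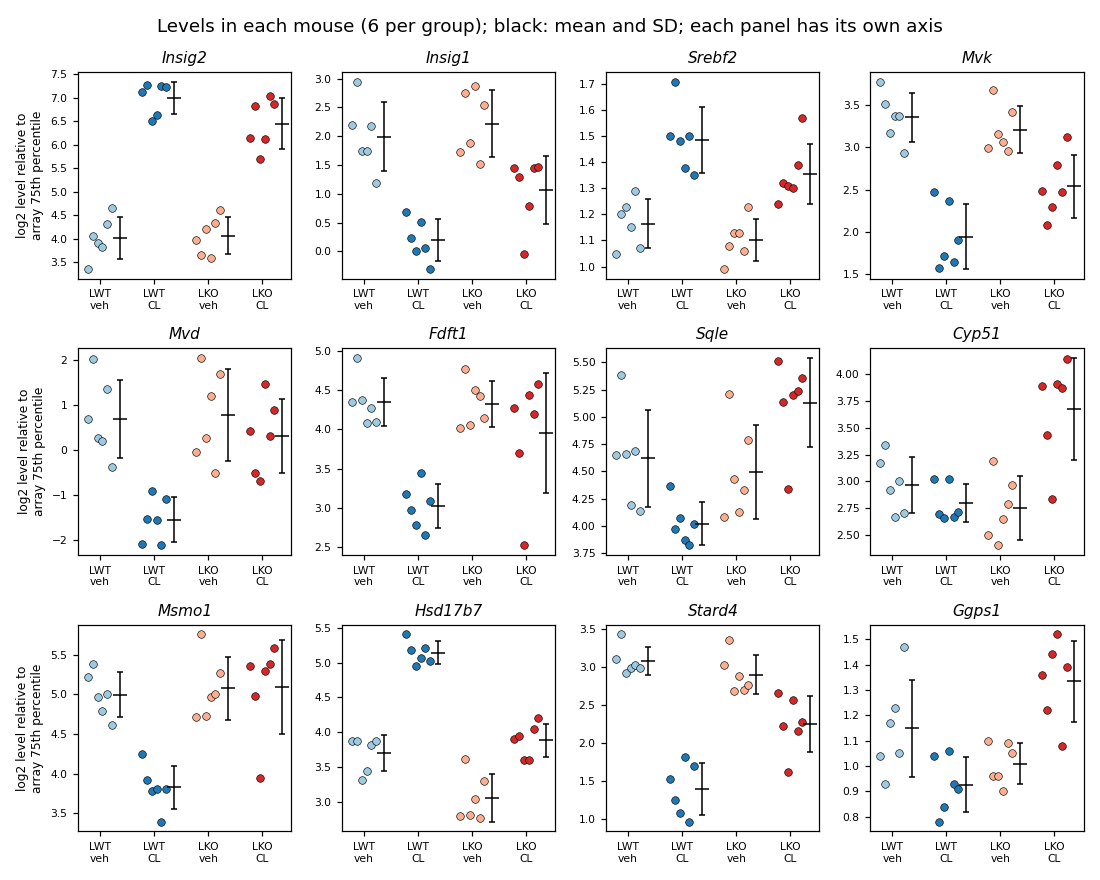
Level in each mouse (log2 relative to the array's 75th percentile) for 12 members in the 4 groups, 6 points per group, with the mean and SD in black and a separate vertical axis for each gene. Insig2 separates treated from vehicle mice in both genotypes, while for Mvk, Mvd, Fdft1, Msmo1 and Stard4 the LWT CL316243 mice are the low group.

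Of the 4 measured early enzymes of the mevalonate route, Mvk and Mvd fell in LWT mice and Hmgcs1 and Pmvk rose in LKO mice. Mvk encodes mevalonate kinase, which adds the first phosphate to mevalonate. Its level ranged from 2.93 to 3.78 (median 3.37) in LWT vehicle and from 1.57 to 2.47 (median 1.81) in LWT CL316243 mice. In the LKO groups it ranged from 2.96 to 3.68 (median 3.11) and from 2.08 to 3.12 (median 2.48). The LWT groups did not overlap and the LKO groups did. The change was -1.41 (SE 0.19, 2.66-fold lower, adjusted p = 4.25e-06, limma) in LWT and -0.67 (SE 0.19, 1.59-fold lower, adjusted p = 0.00628, limma) in LKO, a difference of 0.74 (95% interval 0.19 to 1.29) that did not pass over all genes (adjusted p = 0.116, limma). The probe lies at chr5:114910540-114910599 (mm9).

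Mvd encodes the decarboxylase that makes isopentenyl diphosphate, and it is described by mouse although it was chosen after its values were seen. Its level ranged from -0.37 to 2.03 (median 0.49) in LWT vehicle and from -2.12 to -0.91 (median -1.54) in LWT CL316243 mice. The LKO ranges were -0.51 to 2.05 (median 0.74) and -0.69 to 1.48 (median 0.37). The LWT groups were apart, and the LKO groups covered nearly the same range. The change was -2.25 (SE 0.45, 4.75-fold lower, adjusted p = 0.000444, limma) in LWT and -0.46 (95% interval -1.40 to 0.48, adjusted p = 0.446, limma) in LKO. The difference of 1.79 had a wide interval, 0.46 to 3.12, and did not pass (adjusted p = 0.117, limma). Without the 3 mice that stood apart the LKO change of Mvd was 0.00 and the interaction 1.98 (adjusted p = 0.0504), and leaving out single mice gave LKO changes from -0.72 to -0.20. Within groups Mvd had SDs from 0.50 to 1.02, the largest of the 18 enzymes in every group but LKO CL316243, where Hmgcs1 had 0.88.

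Hmgcs1, the synthase that condenses acetyl-CoA with acetoacetyl-CoA, was not called in LWT mice (0.13, 95% interval -0.50 to 0.75) and rose 2-fold in LKO mice (1.0, SE 0.30, adjusted p = 0.0109, limma). Its LKO CL316243 levels ranged from 3.52 to 5.89 around a median of 5.56, replicate 3 being lowest. Pmvk, the phosphomevalonate kinase, changed by 0.01 in LWT (95% interval -0.53 to 0.54) and by 0.77 in LKO (adjusted p = 0.0215, limma). Without LKO CL316243 replicate 3, which had the highest Pmvk level of its group, the adjusted p was 0.0663. The interaction was 0.87 for Hmgcs1 (adjusted p = 0.282) and 0.76 for Pmvk (adjusted p = 0.276), neither called by limma.

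Among the isoprenoid enzymes Idi1, Fdps and Ggps1, single calls were small. Idi1 isomerises isopentenyl diphosphate. It changed by -0.31 in LWT (95% interval -0.73 to 0.10) and by 0.51 in LKO (adjusted p = 0.0447, limma). The LKO call was lost on leaving out LKO vehicle replicate 1, 3, 4 or 5, LKO CL316243 replicate 1, 4, 5 or 6, LWT vehicle replicate 5 or LWT CL316243 replicate 6, with adjusted p up to 0.119. It was also lost with quantile normalization, the deposited series table, no filter on dim probes or only the groups compared. Within slides 1, 2 and 3 the change was -0.10, 0.85 and 0.79. Without the 3 mice that stood apart, picked by these enzymes' levels, the change was 0.81 (adjusted p = 0.000236, limma). Fdps, the farnesyl diphosphate synthase, was called in neither genotype: -0.35 (-0.76 to 0.06) in LWT and 0.08 (-0.33 to 0.50) in LKO.

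Ggps1 makes geranylgeranyl diphosphate, which anchors small GTPases to membranes, and it was also chosen after its values were seen. Levels ran from 0.93 to 1.47 (median 1.11) in LWT vehicle and from 0.78 to 1.06 (median 0.92) in LWT CL316243 mice. The LKO ranges were 0.90 to 1.1 (median 1.01) and 1.08 to 1.52 (median 1.37). Both pairs of groups overlapped. The change was -0.22 in LWT (adjusted p = 0.0439) and 0.32 in LKO (adjusted p = 0.00398), an interaction of 0.55 (adjusted p = 0.00755), all by limma. The LWT call was lost without LWT vehicle replicate 3, 4 or 6, LWT CL316243 replicate 2, 3, 5 or 6 or LKO vehicle replicate 3, with adjusted p up to 0.129. It rests on the brightest of 6 kept probes: the other 5 gave changes from 0.01 to 0.25 in LWT. With the mean of all 6 probes the LWT change was 0.08 (adjusted p = 0.511) and the interaction was not called (adjusted p = 0.0992). In LKO mice all 6 probes rose, by 0.28 to 0.51.

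The 3 enzymes that make and close squalene fell in LWT mice. Fdft1, squalene synthase, commits the route to sterols. Levels ranged from 4.08 to 4.91 (median 4.31) in LWT vehicle and from 2.66 to 3.44 (median 3.03) in LWT CL316243 mice. The LKO ranges were 4.02 to 4.77 (median 4.28) and 2.52 to 4.58 (median 4.24). The LWT groups did not overlap, and in LKO mice the medians were close, with replicate 3 far below the rest. The change was -1.32 (SE 0.25, 2.5-fold lower, adjusted p = 0.000265, limma) in LWT and -0.37 (95% interval -0.89 to 0.16, adjusted p = 0.262, limma) in LKO. A second probe gave -1.36 and -0.48. Without the 3 mice that stood apart the LKO change was 0.01. The interaction went from 0.96 (adjusted p = 0.137, limma) to 1.22 (adjusted p = 0.0017, limma). Those mice were picked by the levels of these same enzymes, so the smaller adjusted p is no support.

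Sqle, squalene epoxidase, is a rate-limiting oxygenase of the route and was chosen after its values were seen. The level ran from 4.14 to 5.38 (median 4.65) in LWT vehicle and from 3.82 to 4.37 (median 4.00) in LWT CL316243 mice. In LKO mice it ranged from 4.08 to 5.21 (median 4.38) and from 4.34 to 5.51 (median 5.22). Both pairs overlapped, and the treated medians lay below the vehicle median in LWT and above it in LKO. The change was -0.60 (SE 0.21, adjusted p = 0.0308, limma) in LWT and 0.64 (SE 0.21, adjusted p = 0.021, limma) in LKO. The interaction was 1.24 (SE 0.30, 95% interval 0.61 to 1.87, adjusted p = 0.0167, limma). The interaction was called without each of the 24 mice in turn, with adjusted p from 0.00271 to 0.0341. The LWT fall was not called on leaving out LWT vehicle replicate 1, 2 or 5 or LWT CL316243 replicate 2, 4 or 5, with adjusted p up to 0.0921, or with no filter on dim probes (0.0596). The LKO rise was not called without replicate 1 or 4 of the LKO vehicle mice or replicate 1 of the LKO CL316243 mice, with adjusted p up to 0.054. The probe lies at chr15:59162688-59162747 (mm9).

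Lss, lanosterol synthase, fell in LWT mice by 0.61 (adjusted p = 0.0284, limma) and changed by -0.05 in LKO mice (95% interval -0.50 to 0.40). The LWT call was lost on leaving out LWT vehicle replicate 2 or LWT CL316243 replicate 2, 3 or 5, with adjusted p up to 0.0861. It was also lost with no filter on dim probes (adjusted p = 0.0552). The other 2 Lss probes gave -0.61 and -1.05 in LWT.

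The 8 enzymes from lanosterol to cholesterol did not move as one. Cyp51, the lanosterol demethylase, ranged from 2.67 to 3.34 (median 2.96) in LWT vehicle and from 2.66 to 3.02 (median 2.70) in LWT CL316243 mice. The LKO range was 2.40 to 3.19 (median 2.72) under vehicle and 2.83 to 4.14 (median 3.88) under CL316243. Treated LKO mice were high, apart from replicate 3, which lay inside the vehicle range. The change was -0.17 (95% interval -0.55 to 0.20, adjusted p = 0.489, limma) in LWT and 0.93 (SE 0.18, 1.91-fold, adjusted p = 0.000294, limma) in LKO. The interaction was 1.1 (SE 0.25, adjusted p = 0.0107, limma), and a second, dimmer probe gave 0.71.

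Msmo1, the methylsterol oxidase that acts after Cyp51, fell in LWT mice and was not called in LKO mice. Levels ran from 4.61 to 5.39 (median 4.99) in LWT vehicle and from 3.39 to 4.25 (median 3.80) in LWT CL316243 mice. It ranged from 4.71 to 5.76 (median 4.99) in LKO vehicle and from 3.94 to 5.58 (median 5.33) in LKO CL316243 mice. The LWT groups were separate, and 5 of the 6 treated LKO mice lay between 4.98 and 5.58. The change was -1.17 (SE 0.23, 2.25-fold lower, adjusted p = 0.000281, limma) in LWT and 0.02 (95% interval -0.45 to 0.48) in LKO. A much dimmer probe gave -1.47 in LWT and 0.70 in LKO (unadjusted p = 0.0177, limma), an interaction of 2.17. The remaining kept probe gave -0.90 and -0.05, an interaction of 0.85. On the reported, brightest probe the interaction was 1.19 (SE 0.32, adjusted p = 0.0293, limma). That call was lost on leaving out LWT vehicle replicate 1 or 2, LWT CL316243 replicate 5, replicate 1 or 3 of the LKO vehicle mice, or replicate 1, 5 or 6 of the treated LKO mice, with adjusted p up to 0.0563, and with no filter on dim probes (0.0651). LKO CL316243 replicate 3, LWT vehicle replicate 2 and LKO vehicle replicate 2 were picked by these enzymes' levels. Without them together the interaction was 1.48 (adjusted p = 0.000157, limma).

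Hsd17b7, the ketosteroid reductase of the same demethylation steps, was the 1 enzyme called higher in LWT mice, and it was also called higher in LKO mice. Mice ranged from 3.32 to 3.88 (median 3.85) in LWT vehicle and from 4.95 to 5.41 (median 5.13) in LWT CL316243 mice. The LKO ranges were 2.77 to 3.62 (median 2.92) and 3.60 to 4.20 (median 3.92). Treated mice were high in both genotypes, with a narrow overlap in LKO. The change was 1.44 (SE 0.15, 2.71-fold, adjusted p = 1.07e-07, limma) in LWT and 0.83 (SE 0.15, 1.77-fold, adjusted p = 0.000118, limma) in LKO. The difference was -0.61 (95% interval -1.04 to -0.19, adjusted p = 0.0895, limma). The probe lies at chr1:171882591-171882650 (mm9), and the 2 other Hsd17b7 probes rose by 0.89 and 1.52 in LWT and by 0.77 and 0.68 in LKO.

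Sc5d, the lathosterol desaturase, fell in both genotypes, by 0.74 in LWT (adjusted p = 0.00398) and by 0.49 in LKO (adjusted p = 0.0463, limma). The LKO call was lost on leaving out any LWT vehicle mouse but replicate 2, LWT CL316243 replicate 5 or 6, any LKO vehicle mouse but replicates 3 and 6, or LKO CL316243 replicate 2, 3, 4 or 5, with adjusted p up to 0.129, and with the slide as a block. A dimmer Sc5d probe gave -2.73 and -1.51. Ebp, the sterol isomerase, fell by 0.27 in LWT (adjusted p = 0.0167, limma) and changed by -0.09 in LKO (95% interval -0.27 to 0.09). A second Ebp probe gave -0.07 in LWT and -0.25 in LKO, and with the mean of both probes the LWT call was lost (-0.17, adjusted p = 0.0954). The remaining 3 were called in neither genotype. Tm7sf2, a sterol reductase, changed by -0.19 (-0.38 to -0.01) in LWT and 0.00 (-0.18 to 0.19) in LKO. Nsdhl, a decarboxylating sterol dehydrogenase, changed by -0.14 (-0.55 to 0.27) and 0.16 (-0.26 to 0.57). Dhcr7, the last reductase of one branch, changed by 0.23 (-0.06 to 0.52) and 0.11 (-0.18 to 0.40), with 95% intervals in parentheses.

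Of the 4 transport genes, Stard4 had the largest change in LWT mice and Npc1 in LKO mice. Stard4 encodes a soluble sterol carrier. Values ran from 2.92 to 3.43 (median 3.01) in LWT vehicle and from 0.96 to 1.81 (median 1.39) in LWT CL316243 mice. In LKO mice it ranged from 2.68 to 3.35 (median 2.82) and from 1.62 to 2.65 (median 2.25). Neither pair overlapped. The change was -1.69 (SE 0.17, 3.22-fold lower, adjusted p = 7.39e-08, limma) in LWT and -0.65 (SE 0.17, 1.57-fold lower, adjusted p = 0.00353, limma) in LKO. The interaction was 1.04 (SE 0.23, adjusted p = 0.00897, limma), so the fall was larger in LWT mice. A second, dimmer probe gave an interaction of 0.83. Its change was -1.12 in LWT and -0.29 in LKO, the latter with an unadjusted p of 0.115 (limma).

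Tmem97, a sterol-binding protein of the endoplasmic reticulum, fell by 0.45 in LWT (adjusted p = 0.00112, limma) and changed by -0.24 in LKO (95% interval -0.45 to -0.03, adjusted p = 0.0658, limma). The LKO fall was called under 5 of 12 other settings. Other Tmem97 probes gave -0.49 and -0.45 in LWT and -0.22 and -0.42 in LKO. Npc1, which exports cholesterol from lysosomes, was not called in LWT (-0.16, -0.57 to 0.24) and fell by 0.73 in LKO (adjusted p = 0.00485, limma). Its partner Npc2 changed by -0.01 (-0.16 to 0.13) and -0.03 (-0.17 to 0.12). Among the esterification genes Lcat, the plasma enzyme secreted by the liver, rose by 0.41 in LKO (adjusted p = 0.00571, limma) and changed by 0.27 in LWT (0.04 to 0.50, adjusted p = 0.0621). The acyltransferases were not called: Soat1 changed by 0.07 (-0.19 to 0.33) and 0.13 (-0.13 to 0.40), and Soat2 by 0.10 (-0.20 to 0.40) and 0.25 (-0.05 to 0.55). Npc2, Soat1, Soat2 and Scap, with Fdps, Tm7sf2, Nsdhl and Dhcr7, made up the 8 members called in neither genotype.

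The test of whether the agonist's effect differed between genotypes called 5 members, Cyp51, Ggps1, Msmo1, Sqle and Stard4, all more positive in LKO (17.2% of members, where 2.17% of all genes were called in that direction). It called 0 members the other way, where 3.24% of all genes were called. In that direction 1 member, Hsd17b7, had an unadjusted p under 0.05 (0.00675, limma). The 0 rests on the brightest probe of each gene. Other Hsd17b7 probes gave differences of -0.84 (unadjusted p = 0.000105, limma) and -0.13 (unadjusted p = 0.738, limma). The enzyme median of this difference was 0.65, against 0.03 for all genes, and 16 of 18 enzymes lay above 0, all but Hsd17b7 and Dhcr7. Without LKO CL316243 replicate 3 the count was 8, Fdft1, Hmgcs1 and Idi1 being added. The count was also 8 without the 3 mice that stood apart, which were picked by these enzymes' levels. Within slides the enzyme median of the difference was -0.16 on slide 1, 1.29 on slide 2 and 0.81 on slide 3, each from 2 mice per group. Slide 1 held LKO CL316243 replicates 2 and 3. All 5 called members kept the positive sign on each slide, Sqle with 0.59, 1.79 and 1.33 and Cyp51 with 0.39, 1.76 and 1.16. With the slide as a block the same 5 members were called.

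Compared directly, the genotypes differed little under vehicle and more under CL316243. Under vehicle 1 member was called, Hsd17b7, lower in LKO by 0.65 (SE 0.15, adjusted p = 0.0229, limma), with 0.778% of all genes called lower. No member was called higher, where 0.398% of all genes were, and 2 members, Tmem97 and Npc2, had an unadjusted p under 0.05 (limma). That call was lost on leaving out LWT vehicle replicate 1, 2, 5 or 6 or LKO vehicle replicate 1, 3, 4 or 5, with adjusted p up to 0.0753. The enzyme median under vehicle was -0.12. Under CL316243 11 members (37.9%) were higher in LKO and 2 (6.9%) lower, where 7.74% of all genes were higher and 8.17% lower. The 11 were Mvk, Pmvk, Mvd, Idi1, Ggps1, Fdft1, Sqle, Cyp51, Msmo1, Stard4 and Tmem97. The 2 were Hsd17b7, lower by 1.26 (SE 0.15, 2.40-fold, adjusted p = 1.12e-06, limma), and Npc1, lower by 0.75 (adjusted p = 0.0101, limma). The call of Mvk was lost without LWT CL316243 replicate 2, 3, 5 or 6 or LKO CL316243 replicate 4 or 6 (adjusted p up to 0.0859), that of Idi1 without LKO CL316243 replicate 6 (0.0548) and that of Pmvk without LWT CL316243 replicate 2 (0.0506). With only the groups compared in the fit, Mvk, Idi1, Pmvk, Fdft1 and Npc1 were not called (Npc1 adjusted p = 0.0809). With the mean of all kept probes Mvk and Npc1 were not called (Npc1 -0.63, adjusted p = 0.0701).

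The size of these differences under CL316243 was largest for Mvd, at 1.87 (95% interval 0.93 to 2.81, adjusted p = 0.00586, limma), where the 2 groups did not overlap. Msmo1 was higher in LKO by 1.27 (adjusted p = 0.000316), Sqle by 1.12 (adjusted p = 0.000702) and Fdft1 by 0.93 (adjusted p = 0.0133). Insig1 was higher by 0.87, just short of the threshold (adjusted p = 0.0521), and was called under 6 of 12 other settings. The enzyme median was 0.53, with -0.02, 1.11 and 0.60 within slides 1, 2 and 3. Of the 13 called members, 11 had the same sign on each slide, Idi1 and Fdft1 being the exceptions. This comparison shares its treated mice with both agonist effects above and is the same information as the vehicle difference plus the interaction.

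**Figure D3:**
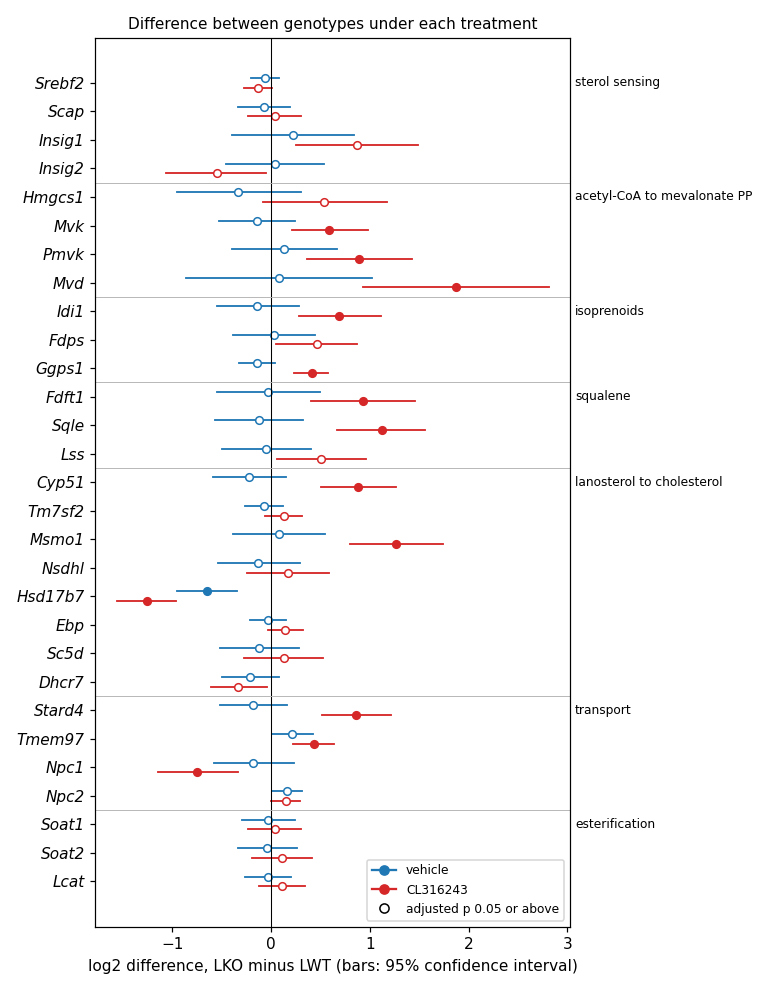
Log2 difference between LKO and LWT mice for the 29 members, ordered by role, under vehicle (blue) and under CL316243 (red), 6 mice per group; bars are 95% confidence intervals and open points did not reach an adjusted p under 0.05 (limma). Under vehicle only Hsd17b7 is filled, at -0.65, while under CL316243 11 members are filled to the right of 0 and 2 to the left.

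The enzymes also varied together from mouse to mouse within groups. The mean level of the 18 enzymes ranged from 3.76 to 4.45 (4.04 ± 0.26, SD, n = 6) in LWT vehicle and from 3.46 to 3.80 (3.60 ± 0.16) in LWT CL316243 mice. It ranged from 3.71 to 4.42 (3.93 ± 0.27) in LKO vehicle and from 3.54 to 4.42 (4.11 ± 0.33) in LKO CL316243 mice. The LWT CL316243 mice were low as a group, overlapping the LWT vehicle group only at its lower end. LKO CL316243 replicate 3 had the lowest level of its group for 12 of the 18 enzymes. LWT vehicle replicate 2 had the highest for 11 and LKO vehicle replicate 2 the highest for 14. The median SD of the enzymes was 0.27, 0.25, 0.31 and 0.40 in LWT vehicle, LWT CL316243, LKO vehicle and LKO CL316243 mice, against 0.18, 0.22, 0.18 and 0.25 for all genes.

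**Figure D4:**
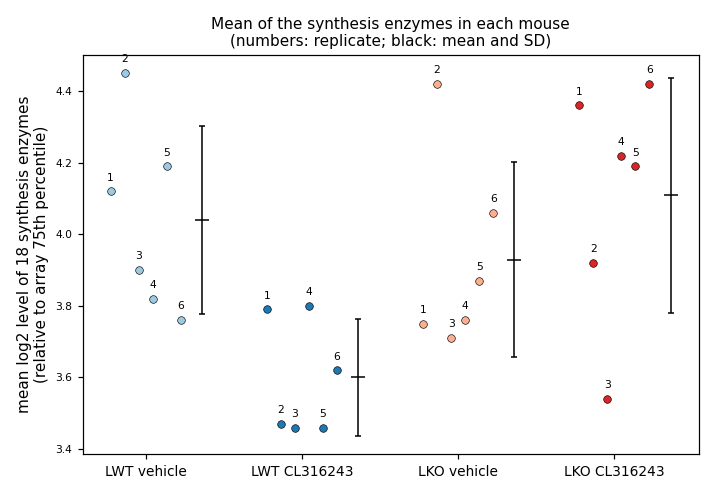
Mean log2 level of the 18 measured synthesis enzymes in each mouse (relative to the array's 75th percentile) by group, with the replicate number above each point and the mean and SD in black. Replicate 3 of the LKO CL316243 group, at 3.54, lies with the LWT CL316243 mice, and replicate 2 is the highest mouse in both vehicle groups, at 4.45 and 4.42.

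LKO CL316243 replicate 3 also had the lowest Ppara level of all mice, 3.06 where the other 5 of its group ranged from 4.35 to 4.85, and the highest summed level of 5 neutrophil markers, 7.38. What part this has in its enzyme levels was not tested. Its array lay on slide 1.

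Over 7 marker lists, hepatocyte markers included, the agonist effect was called for 13 of 41 genes in LWT and 15 of 41 in LKO. Of all genes, 18.9% were called higher and 19.4% lower in LWT, and 20.9% and 19.4% in LKO. The share of markers called was thus below that of all genes in both genotypes. Neutrophil markers were called higher for 3 of 5 and lower for 1 of 5 in LWT, and higher for 4 of 5 in LKO. Their summed level ranged from 6.53 to 6.69 in LWT vehicle, 6.67 to 6.89 in LWT CL316243, 6.36 to 6.61 in LKO vehicle and 6.62 to 7.38 in LKO CL316243 mice. In LWT vehicle mice this sum came mainly from Csf3r (mean level 6.57), with S100a9 next at 0.76. Retnlg rose by 2.06 and 3.48 on the log2 scale. Ly6g, the marker called lower in LWT, changed by -0.38 there and by -0.28 in LKO, where it was not called. Of 5 cholangiocyte markers 1 rose in LWT and 2 in LKO, Sox9 by 1.47 and 2.18, while Krt19 and Krt7 were not called. Their sum ranged from 1.87 to 2.69, 2.07 to 3.82, 1.81 to 2.74 and 2.82 to 3.82 in the same group order. Of 5 lymphocyte markers, 2 fell in LWT, and 3 fell and 1 rose in LKO, and Ms4a1 fell in both. Lymphocyte sums ranged from 1.33 to 1.56, 1.24 to 1.48, 1.01 to 1.61 and 1.01 to 1.46. Endothelial markers were called higher for 2 and lower for 1 of 6 in LWT and 1 each way in LKO (sums from 5.11 to 5.60 over all mice). Stellate markers were called 1 each way of 6 in LWT and 1 higher in LKO (sums from 5.38 to 6.20). Macrophage markers were called for 0 of 7 in both, and 0 had an unadjusted p under 0.05 (limma), with sums from 4.90 to 6.19. No marker list was at 0, and the part of these cells in the members' changes was not tested. The interaction test called 0 of 41 genes of the 7 marker lists, hepatocyte markers included, and 4 had an unadjusted p under 0.05 (limma). Of all genes, that test called 2.17% higher and 3.24% lower.

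Genes around the pathway, from lists that hold no member, are given for comparison. For each list count below, the share of all genes was 18.9% higher and 19.4% lower in LWT. It was 20.9% higher and 19.4% lower in LKO. The lists are small, and counts near these shares are no result about a list. Of 15 other genes of the sterol-sensing and degradation machinery, 6 rose and 5 fell in LWT and 5 rose and 3 fell in LKO. Paqr3, a Golgi protein that binds SCAP, rose by 1.41 (adjusted p = 4.6e-05) and 1.25 (adjusted p = 0.000168), and Erlin1, of the complex that degrades sterol-bound reductase and INSIG, fell by 0.65 and 0.51. Of 10 tested genes that use isoprenoids, 1 rose and 5 fell in each genotype, Dolk, the dolichol kinase, by 0.54 in LWT and by 0.42 in LKO.

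Of 12 sterol transfer and hydrolysis genes, 3 rose and 2 fell in LWT and 1 rose and 2 fell in LKO. Nceh1, a neutral cholesterol ester hydrolase, ranged from 1.09 to 2.68 in LWT vehicle and from 4.43 to 4.68 in LWT CL316243 mice, against 0.53 to 1.45 and 0.98 to 1.64 in LKO mice. The treated LWT mice lay above all others. The LWT change was 2.57 (SE 0.19, adjusted p = 9.28e-10) and the interaction -2.21 (SE 0.27, adjusted p = 1.15e-05, limma). Of 10 genes of LXR signalling and cholesterol efflux, 1 rose and 2 fell in LWT and 1 rose and 4 fell in LKO. Abcg8, one part of the biliary sterol pump, fell by 1.32 and 1.29, and its partner Abcg5 fell by 0.75 and 0.90. Lpcat3, a phospholipid-remodelling enzyme, rose by 0.49 in LWT and fell by 0.77 in LKO, with an interaction of -1.26 (adjusted p = 0.000908, limma).

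Of 8 genes of oxysterol and cholesterol breakdown, 2 fell in LWT, where 0 rose and 0 had a positive change at an unadjusted p under 0.05, and 2 rose and 4 fell in LKO (limma). Cyp7a1, the rate-limiting enzyme of bile acid synthesis, ranged from 2.24 to 3.14 in LWT vehicle and from -7.30 to -2.18 in LWT CL316243 mice. In LKO mice it ranged from 2.36 to 3.31 and from -6.95 to -1.14. The treated groups lay far below, and only 2 of 6 treated arrays in each genotype were well above background, so the fitted changes of -8.08 and -7.78 are not precise sizes. Of 14 genes of fatty acid synthesis under SREBP1, 3 rose and 5 fell in LWT and 2 rose and 5 fell in LKO. Srebf1, the sister gene of Srebf2, fell by 1.96 in LWT and by 3.21 in LKO, where Srebf2 rose by 0.32 and 0.25. The interaction for Srebf1 was -1.25 (SE 0.36, adjusted p = 0.0445, limma), opposite in sign to that of the 5 called members.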

How the data were processed

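Liver RNA of 24 mice (separate animals, per the series' design text) was labelled with Cy3 from 200 ng of total RNA, per the labels' protocols. The deposited scanner files hold background-subtracted processed intensity per spot on a linear scale, which the authors made with Feature Extraction (Agilent, version 10.10.1.1 per the submitters' processing notes). The authors' deposited series table holds log2 values, and every column median was 8.08. Quantile-normalized log2 median signals differed from it by a median of 0.00424 over 31367 probes, with 62.17% of values within 0.01. The deposited series table served as an alternative.

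Outlier spots were dropped (100 values missing after filtering), and processed intensity was converted to log2 minus each array's 75th percentile. A probe was kept (32037 of 56605) if the scanner software marked it well above background in 4 or more of the 6 mice of any group, and each gene was represented by its brightest kept probe on average. One limma 3.58.1 fit (R 4.3.3) held all 24 arrays. It gave 5 contrasts with Benjamini-Hochberg adjustment over 21331 genes, after a check on simulated data. Changes are on the log2 scale, values written with -fold are linear, and the number of arrays limits precision. Probe coordinates are mm9, as in the files; no annotation of that build was used, so exon or UTR was not assigned.

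Members and lists were chosen with earlier results of these data known. Mouse by mouse values were given for the 8 members with the smallest adjusted p (Insig2, Stard4, Hsd17b7, Mvk, Insig1, Fdft1, Msmo1 and Cyp51), and Sqle, Ggps1, Mvd, Srebf2 and the LKO CL316243 group of Hmgcs1 were added after their values were seen. Of each other list, up to 2 genes each way with the largest changes among those called could be named. Some items are not reported here.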

Additional observations from a re-analysis of the deposited data

Results flagged for a closer look

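In groups of 6 mice, the highest or lowest mouse was compared with its nearest neighbour (Dixon's criterion). Of 116 groups of member levels, 10 held such a mouse, where chance gives about 1 in 20, or 5.8. LWT vehicle replicate 2 was far above its group for Fdft1 (4.91, next 4.37), Lss (3.89, next 3.09) and Stard4 (3.43, next 3.11). LKO CL316243 replicate 3 was far below its group for Sqle (4.34, next 5.14), Msmo1 (3.94, next 4.98) and Tmem97 (4.07, next 4.61). Single mice stood apart for Fdps (LWT CL316243 replicate 4, 6.67, next 6.19), Tm7sf2 (LWT CL316243 replicate 1, 5.96, next 5.76) and Soat2 (LWT CL316243 replicate 3, 3.51, next 3.26, and LKO vehicle replicate 6, 2.65, next 3.16).

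The effect of CL316243 differed between LKO and LWT mice by the interaction test (limma) for Ggps1 (0.55), Sqle (1.24), Cyp51 (1.1), Msmo1 (1.19) and Stard4 (1.04), each on the log2 scale and more positive in LKO.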

How the results depend on the processing

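Each count of called members was recomputed under 12 alternative settings (11 for the interaction, since it needs all groups) and without each mouse in turn. Outside the leave-one-out fits, 1636 of the single-member values were unchanged, 30 gained a call, 36 lost one and 8 moved. Unchanged means that a called member kept its sign and call, or that an uncalled one shifted by less than the SD between mice. Moved means an uncalled member that shifted by more and stayed uncalled. The sign of uncalled members was not checked. The 1 called member that reversed was Ggps1 in LWT, 0.08 with the mean of all kept probes. The call for LKO against LWT under vehicle fell to 0 with no filter on dim probes and with only the groups compared. Under CL316243 that comparison called 8 members with only the groups compared, against 13. The interaction called 11 members with array weights and 8 without the 3 mice that stood apart, a setting chosen after seeing the data, against 5. Leaving out 1 mouse in turn gave 12 to 15 members called in LWT, 12 to 15 in LKO, 4 to 8 for the interaction, 0 to 1 for the genotypes under vehicle and 11 to 17 under CL316243. With the replicate number as a replicate block the counts were 15, 16, 6, 1 and 15 in that order. Of the 6 for the interaction, 5 were more positive and 1 more negative in LKO. Deviations of same-numbered mice from their group means had correlations from -0.18 to 0.42 (36 pairs, median 0.05, 11 over 0.1). The median over 180 other pairs was -0.01. These values cannot settle whether same-numbered mice deviated together. The numbers were not taken as pairs, and the replicate block fit is given only here. The causes of these shifts were not tested. The brightest kept probe of every member was well above background on every array, and this was not counted for the dimmer probes.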
